A study of Mus musculus with 6 samples.

Results

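The Snail, Twist and Zeb genes, *Snai1*, *Snai2*, *Snai3*, *Twist1*, *Twist2*, *Zeb1* and *Zeb2*, were followed through an epithelial-mesenchymal transition (EMT) and its reversal. These 7 genes, of 17428 in the expression table, were chosen by family name, with earlier results of these data known. All 7 passed the filter on low coverage. The cells were EpH-4, a mouse mammary epithelial cell line that is not cancerous, so that all samples come from 1 line and no animal or tissue was sampled. E cells were grown in normal medium, M cells had TGF-β1 added to the same medium for 7 days, and RE cells had the TGF-β1 medium of M cells replaced by normal medium for another 4 days. RNA of 2 biological replicates per stage was sequenced, which gave 6 libraries.

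Snail, Twist and Zeb proteins are the transcription factors most often used to define EMT. Snail and Zeb proteins carry zinc fingers that bind E-boxes in the promoters of cell junction and polarity genes and recruit corepressors, and Twist proteins are basic helix-loop-helix (bHLH) factors that bind E-boxes as dimers. TGF-β signalling is a known inducer of *Snai1*, *Zeb1* and *Zeb2*, while the miR-200 microRNAs bind the *Zeb1* and *Zeb2* transcripts and are in turn repressed by Zeb proteins.

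The libraries held between 35782513 and 47928557 reads' worth of sequence, taking a read as 50 bases, because the deposited values are summed bases per gene and not read counts. A level is a gene's TMM-normalized share of its library, in ppm. limma was run on log2(ppm + 0.1), a scale that understates the change of low genes, for the 13893 genes that reached 500 bases (10 reads' worth) in 2 libraries or more. A DEG had to change by more than 1 on the log2 scale with a Benjamini-Hochberg adjusted p under 0.01. Of all genes tested, 17% were called in E vs. M (8.58% higher and 8.39% lower in M). The share was 12.9% in M vs. RE (8.08% higher, 4.79% lower in RE) and 9.37% in E vs. RE (6.2% higher, 3.17% lower in RE). The 2 E libraries stood further apart than the others: their log2 levels differed with an SD of 0.56 over genes, against 0.32 for the M and 0.31 for the RE libraries. Scaling by library totals alone, without TMM, shifted the median of all genes to −0.29 in E vs. M and 0.18 in M vs. RE, and the share of called genes that were higher went from 50.6% to 30.5% and from 62.8% to 73.8%. All 6 mammary epithelial markers were in the table and summed to 1514 to 1860 ppm in E cells, 1305 to 1345 in M cells and 845 to 893 in RE cells, although *Krt19* stayed between 0.04 and 0.16 ppm. *Krt18* was the largest part of that sum in the E and M libraries, and *Krt8* moved the other way in E vs. M, from 223 and 181 ppm to 315 and 323 (log2 fold change 0.67, adjusted p = 0.00919, under the fold threshold).

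Of the 7 genes, 4 were DEGs in E vs. M: *Zeb1*, *Zeb2* and *Snai1* rose and *Snai3* fell. After withdrawal of TGF-β1, 0 of 7 passed the same test in M vs. RE, where 2 (*Twist1* and *Zeb2*) had an unadjusted p under 0.05. The share of all genes tested with an unadjusted p under 0.05 was not counted, so no result is read from that count. In E vs. RE, *Zeb1*, *Zeb2* and *Snai1* were still DEGs, all higher in RE cells. The libraries of the groups did not overlap for 5 of the 7 genes between E and M cells, 7 between M and RE cells and 6 between E and RE cells, beside 70.6%, 78.1% and 66.7% of all genes tested. E vs. M and E vs. RE share the E libraries. In RNA of whole cultures, more cells that express a gene and more RNA of it per cell cannot be told apart.

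**Figure D1:**
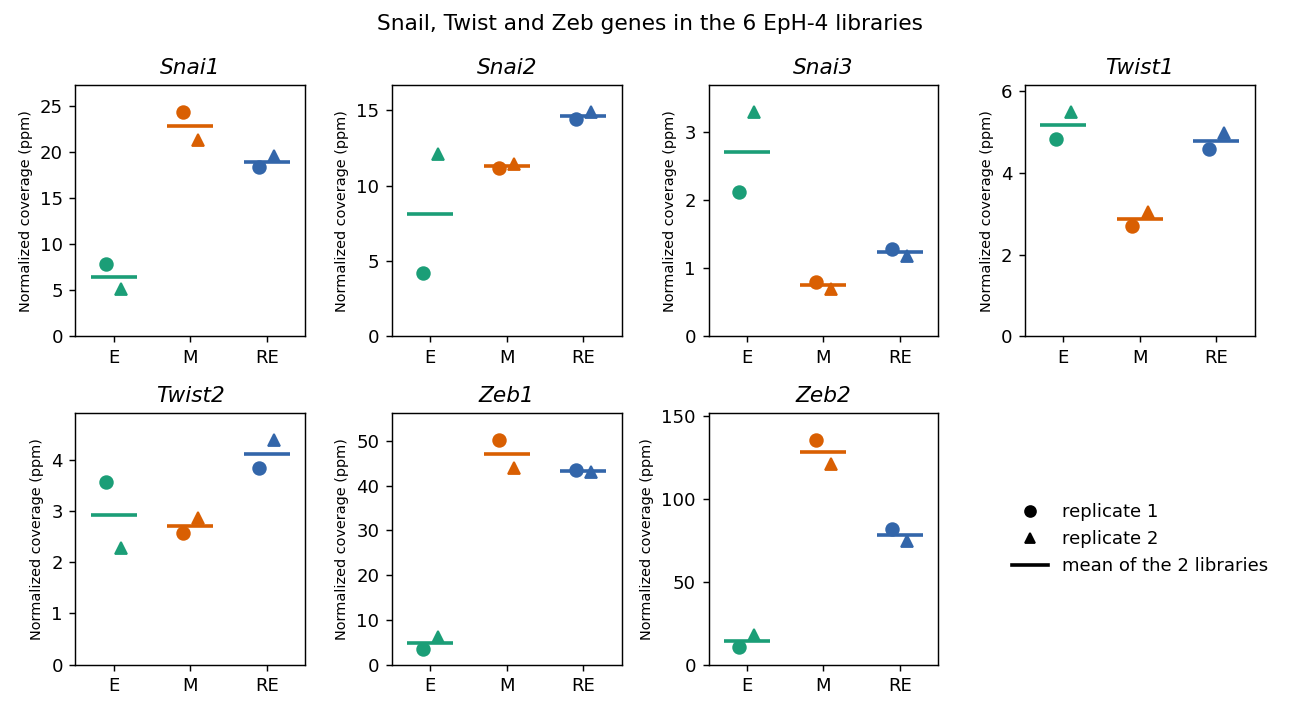
Levels of the 7 Snail, Twist and Zeb genes in ppm in E, M and RE cells, with a panel per gene and axes that start at 0. Circles and triangles are replicates 1 and 2, and each line is the mean of the 2 libraries of a stage. *Zeb1* and *Zeb2* stand near 4.81 and 14.3 ppm in E cells and at 42.9 ppm or more in every M and RE library.

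*Zeb1* was at 3.52 and 6.11 ppm in the E libraries, at 50.2 and 44.0 in the M libraries and at 43.5 and 42.9 in the RE libraries. Every M and RE library was above both E libraries, and the RE libraries were below the M libraries by little. The mean rose 9.78-fold in E vs. M (log2 fold change 3.31 ± 0.25 SE, adjusted p = 7.59e-05). In E vs. RE it was 8.98-fold higher (3.19 ± 0.25 SE, adjusted p = 3.71e-04), and without the first RE library that call was lost (adjusted p = 0.0117). The M vs. RE difference was −0.12, with a 95% interval from −0.69 to 0.45 (adjusted p = 0.749), and its sign turned with library totals (0.085).

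*Zeb2* is the second Zeb gene and had the highest coverage of the 7. It was at 10.9 and 17.7 ppm in the E libraries, at 135 and 121 in the M libraries and at 81.8 and 74.8 in the RE libraries, so that the 3 stages did not overlap. The mean rose 8.97-fold in E vs. M (log2 fold change 3.20 ± 0.22 SE, adjusted p = 6.07e-05). RE cells kept a mean 5.48-fold above E cells (2.49 ± 0.22 SE, adjusted p = 5.67e-04), a call that was lost without the first RE library (adjusted p = 0.0151) or the second (0.0103). Against M cells, the RE mean was 0.611 times as high (−0.71, 95% interval −1.23 to −0.19), which did not pass the test (adjusted p = 0.047). An antisense gene, *Zeb2os*, lies at the *Zeb2* locus, and since the strand setting of the counting is not known here, reads of both genes cannot be told apart.

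The ratio of *Zeb2* to *Zeb1* coverage per kb of transcript does not depend on how libraries are scaled. It was 1.96 and 1.84 in the E libraries, 1.72 and 1.75 in the M libraries and 1.20 and 1.11 in the RE libraries. The RE libraries were thus lower than the other 4, a difference of −0.59 on the log2 scale from M cells. With 2 libraries against 2, the exact permutation test cannot go below the 0.333 (two-sided) that it gave.

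The miR-200 family is shown because its target sites set the Zeb transcripts apart by sequence. Small RNAs were not measured here, so nothing is known from these libraries about the level of any miRNA. The 5 mature sequences (RefSeq, GRCm38.p6) fall into 2 seed groups, with the seed, bases 2 to 8, in capitals. miR-200a, miR-200b and miR-429 lie on chromosome 4, and miR-200c and miR-141 on chromosome 6.
mmu-miR-200b-3p: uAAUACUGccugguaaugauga
mmu-miR-200c-3p: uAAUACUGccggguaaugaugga
mmu-miR-429-3p: uAAUACUGucugguaaugccgu
mmu-miR-200a-3p: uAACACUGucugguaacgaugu
mmu-miR-141-3p: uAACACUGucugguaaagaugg

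Matches to bases 2 to 8 were searched in the 3′ UTR of the longest coding transcript of each gene (GENCODE vM21, on GRCm38), as CAGTATT for the first seed group and CAGTGTT for the second, on the transcript strand only. The *Zeb1* 3′ UTR of 2401 bases held 9 matches (5 and 4), or 3.75 per kb. That of *Zeb2*, 4941 bases long, also held 9 (5 and 4), or 1.82 per kb. Among 12716 genes tested with a 3′ UTR, 71.1% held none and 3 (0.0236%) held 9 or more, namely *Zeb1*, *Zeb2* and *D10Wsu102e*. Of the 3583 genes with a 3′ UTR of at least 2000 bases, 1 (0.0279%, *Zeb1* itself) held as many per kb as *Zeb1* and 11 (0.307%) as many as *Zeb2*. Among the other 5 genes, *Snai2* held 2 matches, *Snai1* held 1 and *Snai3*, *Twist1* and *Twist2* held 0. A match is a description of letters and does not show binding.

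Of the 9 matches in *Zeb2*, 8 started within the first 1039 bases of its 3′ UTR and the ninth started at base 4163. The 4 below, each of 23 bases, are shown with the seed match in capitals and the position counted from the first base of the 3′ UTR. The match at 209 fits the seed of miR-200a and miR-141 and the other 3 fit that of miR-200b, miR-200c and miR-429.
Zeb2 at 209: gcaaaaattttgtaCAGTGTTaa
Zeb2 at 393: gcactaccatacatCAGTATTtt
Zeb2 at 458: gcactacagtgcatCAGTATTac
Zeb2 at 820: tgaagcacccgtgtCAGTATTag

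**Figure D2:**
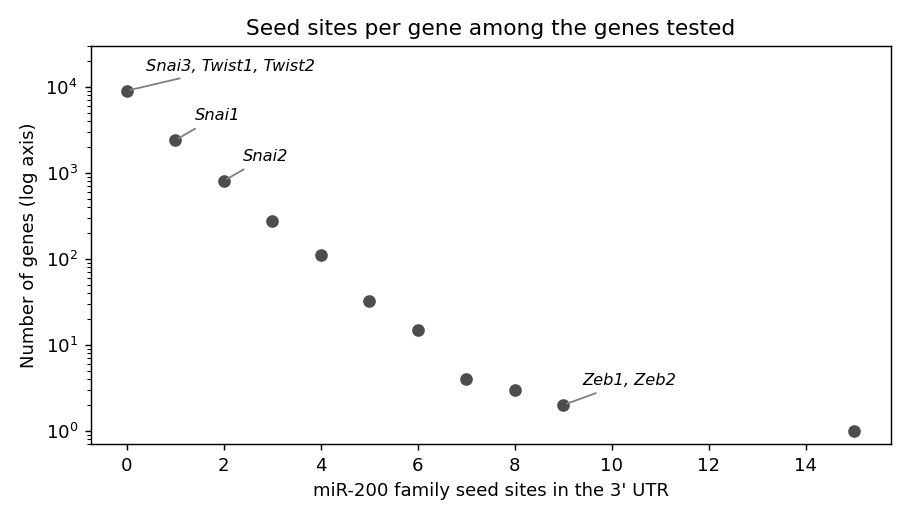
Number of genes (log axis) by the number of miR-200 seed matches in their 3′ UTR, over 12716 genes tested. *Zeb1* and *Zeb2*, with 9 matches each, stand in the far tail, and 71.1% of genes have none.

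*Snai1*, which encodes Snail, was at 7.85 and 5.11 ppm in the E libraries, at 24.3 and 21.3 in the M libraries and at 18.3 and 19.5 in the RE libraries. The stages did not overlap, and the step from E to M cells was larger than that from M to RE cells. The mean rose 3.52-fold in E vs. M (log2 fold change 1.83 ± 0.22 SE, adjusted p = 6.73e-04), a call that was lost without the first M library (adjusted p = 0.0118). In E vs. RE it was 2.92-fold higher (1.56 ± 0.22 SE, adjusted p = 0.00275). That call was lost in a fit of E and RE cells alone (adjusted p = 0.0109), and without the first or second M library (0.0103 and 0.0102) or the first or second RE library (0.0367 and 0.0319). The M vs. RE difference was −0.26, with a 95% interval from −0.78 to 0.25 (adjusted p = 0.406).

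The *Snai1* promoter is printed because Snail is known to bind an E-box in its own promoter. It is given from 250 bases before the start to 50 after it, chr2:167537945-167538244 on the + strand of GRCm38.p6 (RefSeq), with the E-box in capitals, 126 bases before the start. Both strands were searched for CAGGTG, whose reverse complement is CACCTG.
Snai1 promoter: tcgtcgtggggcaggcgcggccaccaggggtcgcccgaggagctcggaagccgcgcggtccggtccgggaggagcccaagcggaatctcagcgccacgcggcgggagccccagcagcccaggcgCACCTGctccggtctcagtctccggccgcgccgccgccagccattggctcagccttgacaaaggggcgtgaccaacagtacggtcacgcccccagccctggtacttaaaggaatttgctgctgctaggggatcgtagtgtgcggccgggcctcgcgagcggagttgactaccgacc

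*Snai2*, which encodes Slug, was at 4.19 and 12.1 ppm in the E libraries, at 11.2 and 11.5 in the M libraries and at 14.4 and 14.9 in the RE libraries. The E libraries lay on either side of both M libraries and were further apart than for any other member, while the M and RE libraries did not overlap. None of its differences passed the test: the log2 fold change was 0.66 in E vs. M (95% interval −0.31 to 1.63, adjusted p = 0.239), 0.37 in M vs. RE (−0.60 to 1.34, 0.544) and 1.03 in E vs. RE (0.06 to 2.00, 0.1). The E library chosen decided the result. Without the second E library *Snai2* was called higher in M cells (1.39) and in RE cells (1.79), and without the first the E vs. M value was −0.10.

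*Snai3*, a Snail relative known mainly from muscle and lymphoid tissue, was the only member called lower in M cells. It was at 2.13 and 3.30 ppm in the E libraries, at 0.796 and 0.701 in the M libraries, which held 33 and 29 reads' worth of it, and at 1.28 and 1.19 in the RE libraries. Both E libraries were above all others and both M libraries below all others. The M mean was 0.276 times the E mean (log2 fold change −1.70 ± 0.28 SE, adjusted p = 0.00285), and the call was lost without the first M library (adjusted p = 0.023) or the second (0.0292). The RE mean was 0.455 times the E mean, which did not pass at 0.01 (−1.05, adjusted p = 0.0289). It did without the first E library (−1.35). In M vs. RE the difference was 0.65 (adjusted p = 0.119).

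*Twist1*, a bHLH factor of mesoderm and neural crest, was at 4.83 and 5.49 ppm in the E libraries, at 2.69 and 3.05 in the M libraries and at 4.57 and 4.98 in the RE libraries. The M libraries were the lowest, and the E and RE libraries overlapped. The M mean was 0.556 times the E mean (log2 fold change −0.82 ± 0.20 SE, adjusted p = 0.0129) and the RE mean 1.66 times the M mean (0.72, 95% interval 0.26 to 1.17, adjusted p = 0.0281), neither of which passed. With library totals the E vs. M difference was called (−1.12, adjusted p = 0.00393). RE and E cells differed by −0.11 (−0.56 to 0.35, adjusted p = 0.705).

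*Twist2*, its close relative, was at 3.58 and 2.28 ppm in the E libraries, at 2.56 and 2.86 in the M libraries and at 3.84 and 4.39 in the RE libraries. The E libraries spanned both M libraries, and both RE libraries were the highest. The log2 fold change was −0.07 in E vs. M (95% interval −0.68 to 0.53, adjusted p = 0.839), 0.58 in M vs. RE (adjusted p = 0.128) and 0.51 in E vs. RE (adjusted p = 0.171). The *Twist1* to *Twist2* ratio per kb was 2.09 and 3.74 in the E libraries, 1.63 and 1.65 in the M libraries and 1.85 and 1.76 in the RE libraries, so that more *Twist1* than *Twist2* was read in every library.

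**Figure D3:**
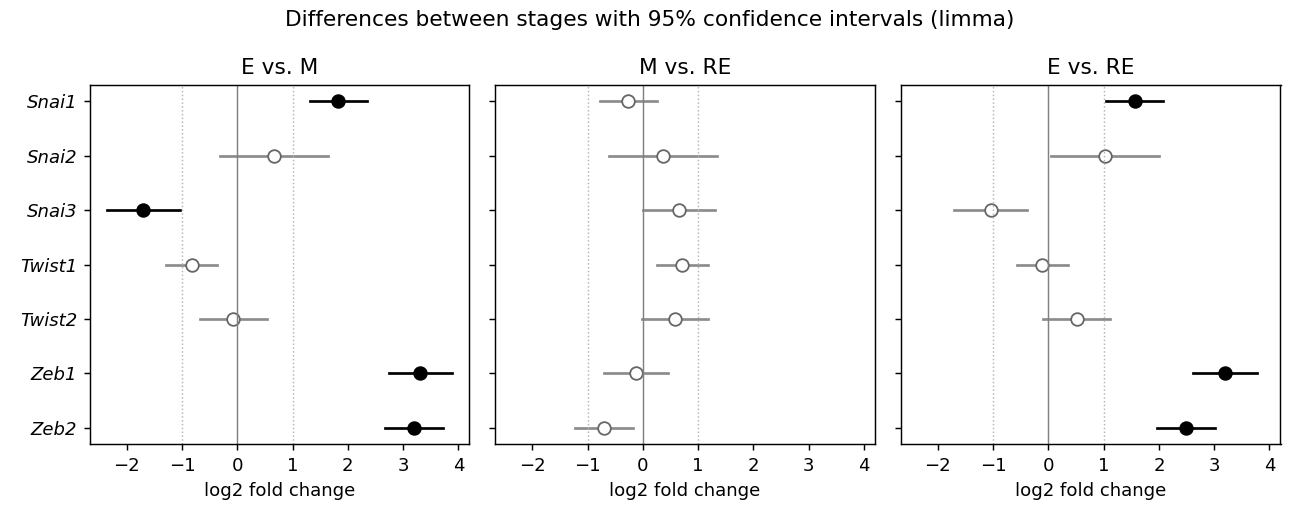
Log2 fold changes of the 7 genes in E vs. M, M vs. RE and E vs. RE, with 95% intervals from limma as lines. Filled points were called, open points were not, and dotted lines mark changes of 1 either way. *Zeb1*, *Zeb2* and *Snai1* lie at 3.31, 3.20 and 1.83 in E vs. M, *Snai3* at −1.70, and the M vs. RE values lie between −0.71 and 0.72.

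Levels of different genes were compared in ppm per kb of transcript. The length was that of the longest coding transcript in GENCODE vM21, while the annotation used to sum the bases is not known here. Close places in the orders below therefore depend on the lengths taken, also where libraries do not overlap. In E cells the order of the means was *Snai2* (4.03), *Snai1* (4.00), *Twist1* (3.17), *Snai3* (1.67), *Zeb2* (1.57), *Twist2* (1.16) and *Zeb1* (0.83). The libraries of neighbours in that order overlapped except those of *Twist1* and *Snai3*. In M cells *Snai1* (14.1) and *Zeb2* (14.0) overlapped at the top, and below them *Zeb1* (8.12), *Snai2* (5.60), *Twist1* (1.76), *Twist2* (1.07) and *Snai3* (0.46) did not overlap with one another. The order in RE cells was *Snai1* (11.7), *Zeb2* (8.59), *Zeb1* (7.45), *Snai2* (7.25), *Twist1* (2.94), *Twist2* (1.63) and *Snai3* (0.758), with no overlap between neighbours.

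Summed per kb, the 2 Zeb genes were at 1.80 and 2.99 in the E libraries, 23.5 and 20.8 in the M libraries and 16.5 and 15.6 in the RE libraries. The 3 Snail genes together were at 8.22 and 11.2, at 21.0 and 19.2 and at 19.2 and 20.1. For the 2 Twist genes the sums were 4.38 and 4.28, then 2.67 and 3.01, then 4.33 and 4.80. Zeb genes were thus the lowest family in both E libraries and above Twist genes in every M and RE library.

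**Figure D4:**
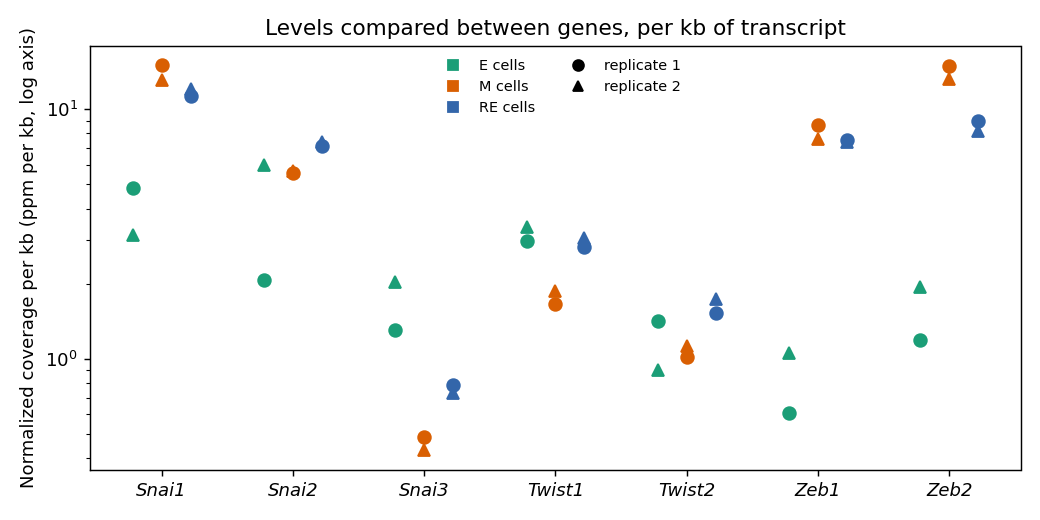
Levels of the 7 genes in ppm per kb of transcript (log axis), coloured by stage, with circles and triangles for replicates 1 and 2. *Zeb1* has the lowest mean of the 7 in E cells (0.83) and the third highest in RE cells (7.45).

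The protein partners of these factors were examined next. This list and those below were chosen from general knowledge, with earlier results of these data known. Of 7 genes for bHLH partners of Twist and for Id inhibitors, which bind bHLH factors and keep them from DNA, 1 was lower in E vs. M, 4 were higher in M vs. RE and 3 were higher in E vs. RE. Beside these counts, 17%, 12.9% and 9.37% of all genes tested were called, and the count in E vs. M did not exceed that share. The median log2 fold changes were 0.19, 1.09 and 1.25, beside 0.00, −0.02 and 0.01 for all genes tested. The partner gene *Tcf4* was called higher in RE cells than in M cells (1.09, adjusted p = 0.00949) and E cells (1.28, adjusted p = 0.00609). The partner genes *Tcf3* and *Tcf12* were not called in any comparison. Id genes made up the rest of those called higher: *Id2*, *Id3* and *Id4* against M cells, *Id2* and *Id3* against E cells. *Id4* fell by 2.60 in E vs. M (adjusted p = 0.00418), and in M vs. RE it was at 3.85. Both values rest on M libraries at 0.0719 and 0.252 ppm, the first at the floor of 3 reads' worth. The RE libraries were at 2.28 and 5.22 ppm. *Id2* had the largest change of the list in E vs. RE, 1.88 (adjusted p = 0.00315), while the *Twist1* difference in the same comparison was −0.11.

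Among 20 genes for corepressors that Snail and Zeb proteins recruit, 1 was called in E vs. M and again in M vs. RE, and 0 were called in E vs. RE, where limma gave 4 an unadjusted p under 0.05. The gene was *Loxl2*, a lysyl oxidase that binds Snail. It was at 0 and 0.0521 ppm in the E libraries, within the floor of 3 reads' worth, at 2.29 and 2.23 in the M libraries and at 0.105 and 0.0464 in the RE libraries, and was called higher in M cells (adjusted p = 1.56e-04) and lower again in RE cells. The corepressor counts were each below the 17%, 12.9% and 9.37% called among all genes tested. The list medians were 0.34, −0.27 and 0.02. Of 16 genes for enzymes that modify, degrade or stabilize Snail protein, 2 rose in E vs. M, the kinase gene *Pak1* (1.25, adjusted p = 5.15e-04) and the deubiquitinase gene *Usp47* (1.05, adjusted p = 9.99e-04). With library totals neither was called (0.95 and 0.74), and the phosphatase gene *Ctdspl* was called lower instead (−1.01). None of the 16 was called in the other 2 comparisons (0 of 16 by limma each time), and 9 had an unadjusted p under 0.05 in each. The share of all genes tested at that level was not counted, so the counts of 4 and 9 are not read as a result. The counts of turnover genes called were also below the shares of all genes called. The list medians were 0.20, −0.21 and 0.17. Snail protein was not measured in these libraries.

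Of 18 epithelial genes known as repression targets of these factors, 8 fell and 1 rose in E vs. M, and 8 were lower and 1 higher in E vs. RE. In M vs. RE 4 were higher and 2 lower. The medians of the 3 comparisons were −0.94, 0.05 and −0.85. *Crb3*, a polarity gene of the apical membrane, fell by 4.95 in E vs. M (adjusted p = 1.67e-05) and stood at −2.53 in E vs. RE. There *Zeb1* was at 3.19 and *Zeb2* at 2.49. *Rab25*, a vesicle traffic gene, fell by 3.48 (adjusted p = 2.20e-05), and *Ocln*, a tight junction gene, by 2.69 (adjusted p = 3.47e-05). In M vs. RE, *Crb3* was higher by 2.42, *Rab25* by 2.01 and *Ocln* by 1.91, all called, while *Zeb1* was at −0.12. The gene that rose in E vs. M was *Pkp2*, a desmosome gene (1.68, adjusted p = 6.60e-05), and in E vs. RE it was *Cldn1*, a tight junction gene (1.11, adjusted p = 0.00688), which was not called with library totals (adjusted p = 0.0115). *Cdh1*, the E-cadherin gene and best known target of Snail and Zeb, did not pass in E vs. M (−0.15, adjusted p = 0.478) or in E vs. RE (−0.17, adjusted p = 0.453).

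The promoters of *Crb3* and *Ocln* are shown for their E-boxes, in capitals, and that of *Zeb2* as a member with no match (RefSeq, GRCm38.p6). *Crb3* (chr17:57061951-57062250, + strand) held 4 matches, at −118, −63, −7 and 26 from the start, and *Ocln* (chr13:100552669-100552968, − strand) held 1 at 8. Among 27025 genes with a promoter of the same length, 20% held at least 1 match and 2.84% at least 2. Of the 13 targets with a promoter there, 11 held a match (84.6%) and 6 held 2 or more (46.2%). Targets are in the list because repression through such sequences is known for many, so this share is not independent of the choice. Of the 4 members with a promoter there, *Snai1* held 1 and *Twist1*, *Twist2* and *Zeb2* (chr2:45117393-45117692, − strand) held 0.
Crb3 promoter: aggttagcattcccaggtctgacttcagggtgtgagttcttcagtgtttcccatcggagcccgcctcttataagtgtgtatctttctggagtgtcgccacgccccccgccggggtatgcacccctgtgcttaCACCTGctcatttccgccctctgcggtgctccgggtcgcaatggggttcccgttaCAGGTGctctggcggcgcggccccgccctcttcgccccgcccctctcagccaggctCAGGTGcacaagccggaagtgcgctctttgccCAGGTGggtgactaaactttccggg
Ocln promoter: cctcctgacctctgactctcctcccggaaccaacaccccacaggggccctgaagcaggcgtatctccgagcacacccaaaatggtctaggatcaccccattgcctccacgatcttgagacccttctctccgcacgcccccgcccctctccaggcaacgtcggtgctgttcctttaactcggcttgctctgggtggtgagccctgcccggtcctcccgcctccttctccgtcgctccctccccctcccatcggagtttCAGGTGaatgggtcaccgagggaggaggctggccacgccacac
Zeb2 promoter: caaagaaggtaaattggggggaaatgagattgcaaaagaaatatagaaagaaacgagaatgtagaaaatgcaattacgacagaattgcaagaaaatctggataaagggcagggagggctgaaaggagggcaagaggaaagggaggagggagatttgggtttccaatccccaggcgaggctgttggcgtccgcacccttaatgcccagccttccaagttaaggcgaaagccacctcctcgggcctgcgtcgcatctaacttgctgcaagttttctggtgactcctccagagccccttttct

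Of 22 mesenchymal genes, 16 rose in E vs. M and 0 fell, 3 were higher and 9 lower in M vs. RE, and 12 were higher in E vs. RE. Called among all genes tested were 17%, 12.9% and 9.37%. The medians were 2.41, −0.91 and 1.67, beside *Zeb1* values of 3.31, −0.12 and 3.19 and *Zeb2* values of 3.20, −0.71 and 2.49. The gelatinase gene *Mmp9* rose by 9.10 in E vs. M, the matrix gene *Tnc* by 7.33 and the smooth muscle actin gene *Acta2* by 7.24, and in E vs. RE the matrix gene *Postn* was highest at 3.37 (adjusted p = 2.46e-04). The fibroblast markers, of which 2 (*Pdgfra* and *Col1a2*) are also in the mesenchymal list, summed to 37.3 to 39.3 ppm in E cells, 123 to 141 in M cells and 168 to 176 in RE cells. Of the 5, 4 were in the table and *Thy1* was at the floor of 3 reads' worth in all 6 libraries. The sums were mostly *Col1a2* and *Pdgfra*, while *Dcn* was at 0.496 and 0.301 ppm in the E libraries, at 0 and 0.0068 in the M libraries and at 3.79 and 1.74 in the RE libraries, and was called lower in M than in E cells (adjusted p = 0.00527). The leukocyte markers summed to 6.82 to 10.6, 33.2 to 36.9 and 7.47 to 7.61 ppm, with *Ptprc* and *Cd3e* of the 5 at the floor in every library. *Csf1r* was at 1.27 to 1.55 ppm in E and 25.8 to 29.9 ppm in M cells. *Cd68* made up most of the E and RE sums and was not called in E vs. M (0.01, adjusted p = 0.973). The 4 endothelial markers summed to 0.37 to 0.56 ppm in E cells, 2.71 to 2.73 in M cells and 0.493 to 0.497 in RE cells, and of these *Cdh5* was at 0 in both E libraries and at 2.33 and 2.07 ppm in the M libraries (called higher in M, adjusted p = 7.96e-05). The part of other cell types in the Zeb and Snail levels was not tested.

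Factors known to oppose EMT in epithelia, of which 11 were tested, showed the opposite split to the Zeb genes in E vs. M, with 9 lower and 1 higher. In M vs. RE 6 were higher and 1 lower, and in E vs. RE 1 was lower. Beside these counts, 17%, 12.9% and 9.37% of all genes tested were called, so the count in E vs. RE was near that share. The medians were −1.96, 1.58 and 0.18. *Grhl1* fell by 3.59 (adjusted p = 2.29e-05), *Klf4* by 2.74 (adjusted p = 2.17e-05) and *Elf3* by 2.70 (adjusted p = 1.58e-04) in E vs. M, while *Elf5*, a factor of the alveolar lineage, rose from 0.0463 and 0.0812 ppm in the E libraries, a few reads' worth, to 2.90 and 2.88 in the M libraries (adjusted p = 1.35e-04). The splicing factor gene *Esrp1*, a known target of Zeb proteins, was the 1 called lower in RE than in E cells (−1.33, adjusted p = 0.00673). *Ovol2*, a repressor gene named after its values were seen, was at −1.39 there and did not pass (adjusted p = 0.0236).

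Of 10 other EMT transcription factors tested, 2 rose and 3 fell in E vs. M, 5 were higher and 2 lower in M vs. RE, and 3 were higher in E vs. RE. Beside these counts, 17%, 12.9% and 9.37% of all genes tested were called. *Klf8* rose by 2.65 (adjusted p = 7.92e-04) and *Tbx3* by 1.61 (adjusted p = 0.00142), while *Foxq1* (−2.37, adjusted p = 0.00116), *Foxc1* (−2.26, adjusted p = 0.00124) and *Prrx1* (−1.07, adjusted p = 0.00299) fell. Of the 3 called in E vs. RE *Tbx3* had the largest change, 1.18, and with library totals 1 of the 3 was still called, without *Tbx3* (1.09, adjusted p = 0.0147). *Hmga2*, named after its values were seen, was at −1.39 in E vs. RE and did not pass (adjusted p = 0.0188). The list medians were −0.61, 0.90 and 0.42. Of 8 nearest relatives of the Snail and Twist genes 1 was tested, the bHLH gene *Scx*, which was not called in E vs. M (0.15, adjusted p = 0.664).

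**Figure D5:**
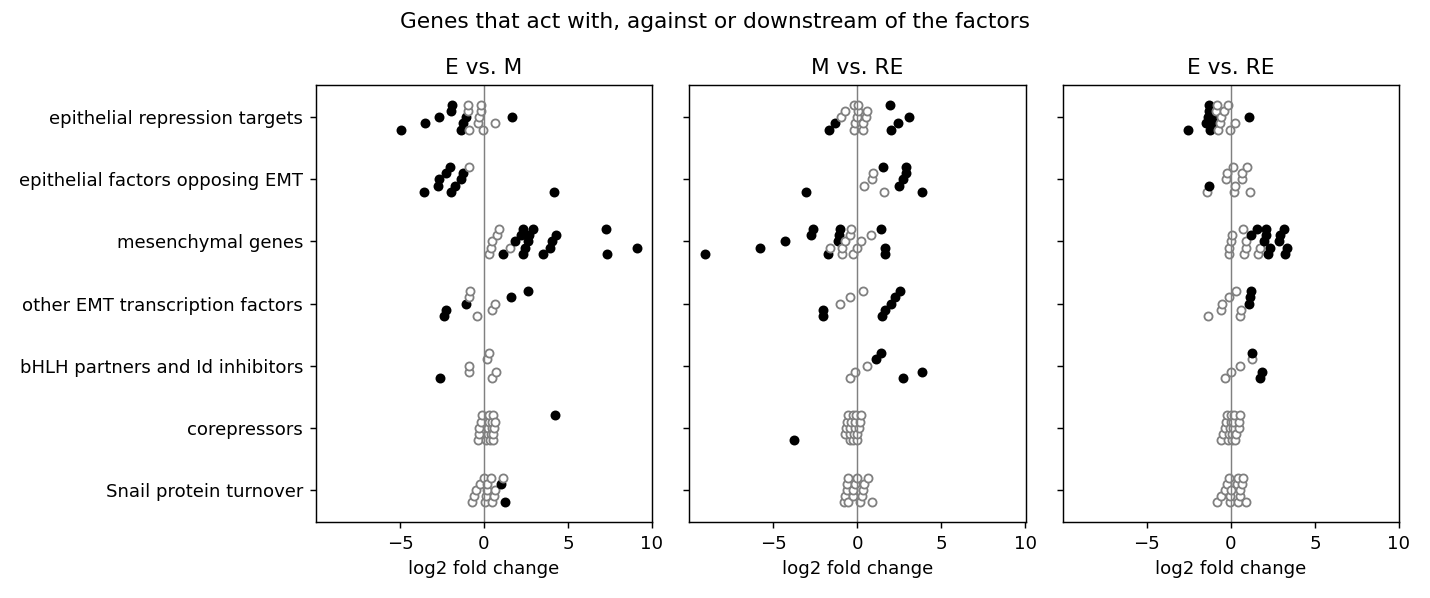
Log2 fold changes of the genes in 7 related lists in each comparison, with a point per gene, filled where the gene was called. Vertical offsets within a list only keep points apart. The mesenchymal list has 16 genes called higher and 0 lower in E vs. M, and the list of factors opposing EMT 1 higher and 9 lower. Among all genes tested, 17% were called in E vs. M.

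The genes whose pattern over the 6 libraries was most like that of each member were found by the distance between centred log2 levels, among about 10095 genes, and are a description. For *Zeb1* they were *Adamts6* (distance 0.41), *Plxnd1* (0.55) and *C1qtnf6* (0.57), and for *Zeb2* they were *Acpp* (0.46), *Cdgap* (0.48) and *Sdc3* (0.52). Next to *Snai1* stood *Lxn* (0.13), *Pros1* (0.24) and *Fmnl3* (0.32), and next to *Snai2* *Myst3* (0.20), *Sp1* (0.21) and *Dcp1a* (0.22). *Snai3* was nearest to *Myc* (0.24), which fell from a mean of 281 ppm in E to 77.8 in M cells and was at 115 in RE cells. *Twist1* was nearest to *Rsad1* (0.12), *Zgpat* (0.12) and *Gstz1* (0.16), and *Twist2* to *Fbxl15* (0.19), *Tubb2a* (0.19) and *Prmt6* (0.22). The Zeb genes had larger distances to their nearest genes than the Snail and Twist genes did. Levels were centred but not scaled, so a distance also depends on how much a gene changes. The Pearson correlations of the Zeb genes with their nearest genes lay within the range found for the Snail and Twist genes. The larger distances therefore do not show that fewer genes share the Zeb patterns.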

How the data were processed

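RNA of 2 biological replicates per stage was sequenced. The authors mapped the unique reads to NCBI-m37 with Bowtie and TopHat2 and deposited unnormalized whole numbers per gene, which behave as coverage (signal): between 44.8% and 48.4% of the values from 1 to 400 in each library were multiples of 50, as sums of 50-base reads would be. The step that summed reads, its annotation and its strand setting are not given in the sources used here. The authors used edgeR, which needs counts and was not run on coverage.

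Library sizes were corrected with unweighted TMM factors (trimming 30% of the log ratios and 5% of the levels from each end), and coverage was turned into ppm. The 13893 genes that reached 500 bases in 2 libraries or more were fitted with limma 3.58.1 in R 4.3.3 on log2(ppm + 0.1), all 6 libraries, group only, with a trend on mean level. A call needed a change of more than 1 on the log2 scale and an adjusted p under 0.01, the values in the paper's methods (its results text gives a lower fold). The adjustment, Benjamini-Hochberg, was chosen here. The fit was tested on simulated data, in which 200 genes were changed by 2 on the log2 scale in E vs. M. It recovered 200 of them with 3 false calls. The simulated noise was the same in every library, unlike the wider spread of the E libraries, so this does not measure how reliable the calls here are.

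Listed genes were matched by symbol or older symbol. Transcript lengths, GC content and 3′ UTRs came from the longest coding transcript in GENCODE vM21 (93.4% of genes tested matched). Promoters and miRNAs came from RefSeq on GRCm38.p6, which is not the build of the files. The members, lists and tests were chosen with earlier results of these data known. Named genes were the members, from each list the called genes with the largest changes in E vs. M (up to 3 a direction) and in E vs. RE, and the 3 genes with the most similar pattern to each member. Other choices are named where they occur.

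Replicate numbers are shared by the groups. Deviations of same-numbered libraries correlated at 0.27 (E and M), 0.058 (E and RE) and 0.12 (M and RE), so the numbers were not taken as pairs. Alternatives were other pseudocounts, filters, scalings and thresholds, a fit of 2 groups, array weights, the replicate block, a correction for GC content and transcript length, and leaving out each library.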

Additional observations from a re-analysis of the deposited data

How the results depend on the processing

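Of 378 alternative values of the 21 log2 fold changes of the Snail, Twist and Zeb genes, 354 kept their direction and their side of the threshold, 11 were no longer called, 5 became called and 8 changed sign. The sign changes were all in differences that were not called. *Snai2* in E vs. M was at −0.10 without the first E library. *Twist2* in E vs. M was at 0.064 with each library corrected for GC content and transcript length, with and without the replicate block, at 0.24 without the first E library and at 0.0024 without the first M library. *Twist1* in E vs. RE was at 0.23 with that correction, with and without the replicate block. *Zeb1* in M vs. RE was at 0.085 with library totals. Without 1 library at a time, 2 to 5 of the 7 genes were called in E vs. M, 0 to 4 in E vs. RE and 0 in M vs. RE, and the E vs. M values ran from −0.10 to 1.39 for *Snai2* and from −0.41 to 0.24 for *Twist2*. The replicate block changed no call on the 7 genes (4, 0 and 3 called). Of the listed genes, library totals changed the Snail protein turnover list from 2 to 1 called in E vs. M (a different gene) and the other EMT transcription factors from 3 to 1 in E vs. RE. Over all genes, a fit of E and RE alone called 678 genes in E vs. RE in place of 1302, and without 1 library at a time limma called 945 to 3362 in E vs. M (2358 with all libraries), 683 to 2337 in M vs. RE (1789 with all) and 44 to 2348 in E vs. RE. In a fit with 1 library left in a group, that library is assumed to vary like the others. *Snai3* had the lowest coverage of the 7 genes in M and RE cells, and each group had 2 libraries.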
